A study of Mus musculus with 6 samples.

Results

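The genes described here encode the machinery by which macrophages sense extracellular nucleotides and adenosine. The 10 members, of 57010 genes in the deposited count table, were chosen by name, with earlier results of these data known. They are the P2X receptor genes P2rx4 and P2rx7, the P2Y receptor genes P2ry2, P2ry6, P2ry12 and P2ry14, the adenosine receptor genes Adora2a and Adora2b, and the ectonucleotidase genes Entpd1 and Nt5e. All 10 names matched 1 row each. RNA was measured in RAW 264.7 cells, a mouse macrophage line, in 6 samples. Lipopolysaccharide, an outer membrane glycolipid of Gram-negative bacteria, had first been given to all 6 to bring on an inflammatory (M1) state. They next received extracellular vesicles shed by tendon stem cells, either from normoxic cells (normoxic-EV, 3 samples) or from hypoxia-preconditioned cells (hypoxic-EV, 3 samples). Doses, times, the species of the tendon stem cells, and whether replicates are separate cultures are not stated in the sources used here. The p-values therefore rest on a spread between samples that may be technical. Cells without vesicles were not analysed here.

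As background, ATP that leaves stressed or dying cells acts on P2X receptors, which are ATP-gated cation channels. P2Y receptors, which are coupled to G proteins, include receptors for ATP and UTP. CD39, encoded by Entpd1, removes phosphates from ATP and ADP to give AMP, and CD73, encoded by Nt5e, turns AMP into adenosine. Adenosine then acts on the receptors encoded by Adora2a and Adora2b, which raise cyclic AMP and are known for restraining inflammatory macrophages, whereas ATP at P2X7 is a known trigger of the NLRP3 inflammasome.

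Library totals ran from 16751665 to 23422328 counts. Of the 10 macrophage markers 9 were tested, of which 2 were higher and 6 lower in hypoxic-EV. The markers summed to between 10513 and 10945 CPM in normoxic-EV and between 8495 and 8895 CPM in hypoxic-EV. Most of that sum was Lyz2, with means of 7946 and 6091 CPM. The 2 higher were Csf1r (174 against 352 CPM, log2 fold change 1.02, edgeR adjusted p = 6.93e-13) and Itgam (log2 fold change 0.16, edgeR adjusted p = 0.0221). Among the 6 lower, Adgre1 fell from 168 to 96.8 CPM (log2 fold change -0.80, edgeR adjusted p = 4.02e-11). Mertk was the marker below the count filter, with 11 counts over all libraries. CPM here are counts scaled to library size and by TMM, a factor for differences in composition between libraries. The 15 tendon and stromal markers summed to between 10.1 and 13.5 CPM in normoxic-EV and between 10.7 and 11.98 CPM in hypoxic-EV. Most of that sum came from Eng, which macrophages also express, and Tnmd, Thbs4, Fmod, Col1a2, Col3a1 and Thy1 were at 0 in every library. The 10 neutrophil and dendritic cell markers summed to between 239 and 273 CPM in normoxic-EV and between 99.6 and 123 CPM in hypoxic-EV. Nearly all of that sum was S100a8, and Elane was at 0. Further neutrophil markers were scarce, with 40 counts of S100a9, 2 of Ly6g, 22 of Cxcr2 and 13 of Mpo over all libraries. The lymphocyte markers summed to between 0.419 and 0.701 CPM in normoxic-EV and between 0.868 and 1.08 CPM in hypoxic-EV, with Cd3e, Cd8a and Ncr1 among those at 0. Their called member was Cd79a, a B cell receptor gene, which was higher (0.304 against 0.789 CPM, log2 fold change 1.36, edgeR adjusted p = 0.00849) and passed the count filter only through hypoxic-EV. The part of the changes in macrophage marker level, S100a8 and Cd79a in the results below was not tested. In bulk RNA, fewer cells of a type and less RNA per cell cannot be told apart.

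With hypoxic-EV, the nucleotide receptor genes P2rx4, P2rx7 and P2ry2 and the ectonucleotidase gene Entpd1 were lower than with normoxic-EV, and the UDP receptor gene P2ry6 was higher. The called decreases ran from 17.6% for P2rx7 to 31.7% for P2rx4, and P2ry6 was 34.1% higher. Adora2b and P2ry12 were tested and not called, and P2ry14, Adora2a and Nt5e had too few counts to be tested. A gene was called at an adjusted p under 0.05 by edgeR's quasi-likelihood test, with p-values adjusted by Benjamini-Hochberg over the 13303 genes tested. By that rule 44.2% of all tested genes were called, 22.7% higher and 21.5% lower, and of the members 1 was called higher and 4 lower, out of 7 tested. The median log2 fold change of the tested members was -0.28, beside -0.0011 for all genes tested. None of the 7 tested members was called with a change of at least 2-fold, as 4.02% of tested genes were. The largest difference among the called members, that of P2rx4, was a log2 fold change of -0.55, and 15.2% of all tested genes had a larger absolute log2 fold change. None of the 10 members is listed in the authors' deposited table of 462 changed genes, in which the smallest absolute log2 fold change was 1.001.

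**Figure D1:**
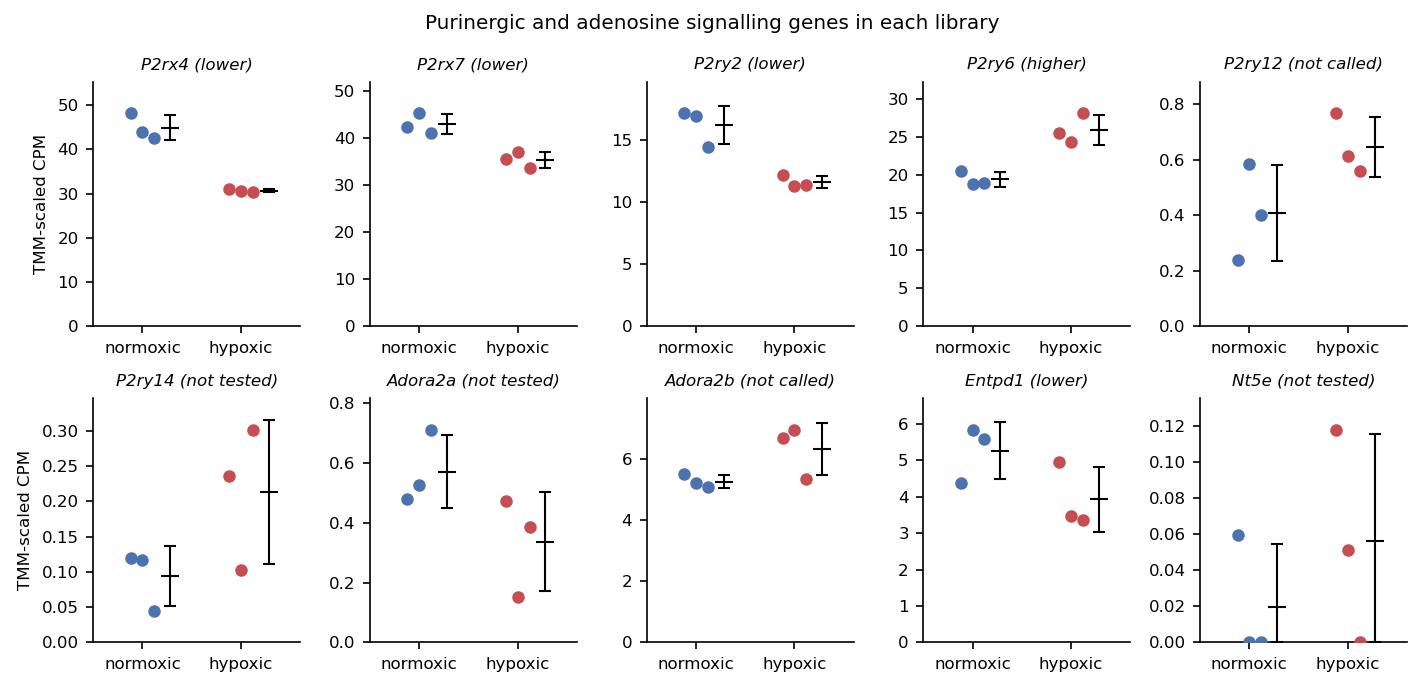
TMM-scaled CPM (y axis, from 0, its scale differing between panels) of the 10 genes in the 3 normoxic-EV libraries (blue) and the 3 hypoxic-EV libraries (red), with the call in each title. Black bars give the mean and SD (n = 3, lower end stopped at 0), and the groups do not overlap for P2rx4, P2rx7, P2ry2, P2ry6 and the untested Adora2a, while Nt5e lies between 0 and 0.118 CPM.

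Both ATP-gated channel genes fell. P2rx4, which encodes a channel that responds to low ATP and also sits in lysosomes (ENSMUSG00000029470, chromosome 5, 122845607 to 122867801, GRCm39, plus strand), stood at 48.2, 44.0 and 42.6 CPM in the normoxic-EV libraries and at 31.1, 30.5 and 30.3 CPM in the hypoxic-EV libraries. Every hypoxic-EV library was below every normoxic-EV library, and the hypoxic-EV values lay within 1 CPM of each other. The mean fell from 44.9 ± 2.88 to 30.7 ± 0.396 CPM (SD, n = 3), and the log2 fold change was -0.55 (SE 0.0659, 95% interval -0.69 to -0.41, edgeR adjusted p = 7.4e-07).

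P2rx7, which encodes the channel that needs high ATP and is known for potassium efflux ahead of inflammasome assembly (ENSMUSG00000029468, chromosome 5, 122781974 to 122829495, plus strand), stood at 42.4, 45.3 and 41.1 CPM in normoxic-EV and at 35.5, 37.0 and 33.6 CPM in hypoxic-EV. The groups did not overlap, but the gap between the lowest normoxic-EV and the highest hypoxic-EV library was smaller than for P2rx4. P2rx7 fell by 0.28 on the log2 scale (SE 0.0655, 95% interval -0.42 to -0.14, edgeR adjusted p = 0.0015). P2rx7 and P2rx4 are neighbours, with 16111 bases between the end of P2rx7 and the start of P2rx4. The ratio of P2rx7 to P2rx4 within a library, in deposited FPKM (a level scaled for gene length and library total), was 1.04, 1.21 and 1.14 in normoxic-EV and 1.34, 1.43 and 1.30 in hypoxic-EV. The ratio was thus higher in every hypoxic-EV library (two-sided exact permutation p = 0.1, which is the lowest value that groups of 3 can give).

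The UTP and UDP receptor genes moved in opposite directions. P2ry2, which encodes a Gq-coupled receptor for ATP and UTP known for sensing nucleotides of dying cells (ENSMUSG00000032860, chromosome 7, 100645775 to 100662073, minus strand), stood at 17.2, 17.0 and 14.4 CPM in normoxic-EV and at 12.2, 11.3 and 11.4 CPM in hypoxic-EV. The normoxic-EV library of 14.4 CPM was the lowest of its group and still above all hypoxic-EV libraries. P2ry2 fell by 0.48 on the log2 scale (SE 0.0977, 95% interval -0.68 to -0.27, edgeR adjusted p = 0.000451).

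P2ry6, which encodes a Gq-coupled receptor for UDP known for promoting phagocytosis in microglia (ENSMUSG00000048779, chromosome 7, 100586837 to 100623856, minus strand), stood at 20.6, 18.8 and 18.9 CPM in normoxic-EV and at 25.5, 24.3 and 28.1 CPM in hypoxic-EV. Every hypoxic-EV library was above every normoxic-EV library. P2ry6 was 1.34-fold higher (log2 fold change 0.42, SE 0.0794, 95% interval 0.26 to 0.59, edgeR adjusted p = 0.000179). Like the P2X pair, P2ry6 and P2ry2 are neighbours on chromosome 7, with 21918 bases between them. The ratio of P2ry6 to P2ry2 in deposited FPKM was 1.63, 1.51 and 1.78 in normoxic-EV and 2.84, 2.93 and 3.37 in hypoxic-EV, with no overlap (two-sided exact permutation p = 0.1, the lowest possible). That outcome was fixed by the values above, since P2ry6 was higher and P2ry2 lower in every hypoxic-EV library. The ratio is thus no further evidence of a difference. Without overlap between the groups were 4 of the 7 tested members, P2rx4, P2rx7, P2ry2 and P2ry6, and 52.8% of all tested genes.

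**Figure D2:**
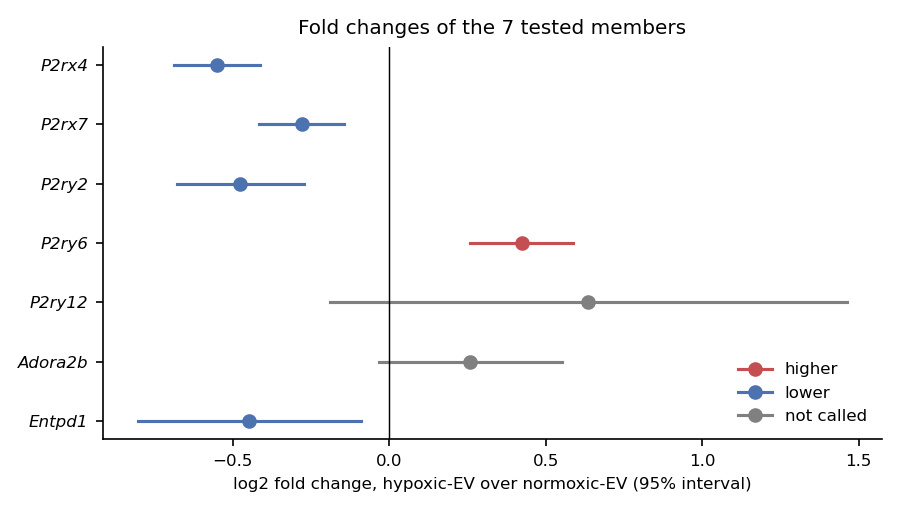
Log2 fold change of hypoxic-EV over normoxic-EV (x axis) for the 7 tested members (y axis), with points for the edgeR estimate and lines for its 95% interval. P2rx4, P2rx7, P2ry2 and Entpd1 lie below 0 and P2ry6 above it, while the intervals of P2ry12 and Adora2b include 0.

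The Gi-coupled P2Y receptor genes were close to the limit of detection. P2ry12, which encodes the ADP receptor known as a marker of resting microglia (chromosome 3, 59123693 to 59170292, minus strand), had 4, 10 and 9 counts in normoxic-EV and 13, 12 and 13 in hypoxic-EV, or between 0.239 and 0.767 CPM. It passed the count filter only through the hypoxic-EV libraries. The CPM of the groups overlapped, and the log2 fold change of 0.64 had a 95% interval of -0.19 to 1.46 (SE 0.396, edgeR adjusted p = 0.206). P2ry14, which encodes the UDP-glucose receptor (chromosome 3, 59021276 to 59061039, minus strand), had 2, 2 and 1 counts in normoxic-EV and 4, 2 and 7 in hypoxic-EV, and was not tested. Both genes lie within the span of Med12l on the other strand, which had 218% of the counts of P2ry12 and 739% of those of P2ry14. Med12l was itself lower (log2 fold change -0.94, edgeR adjusted p = 0.00826), the direction opposite to the values of both receptor genes, and its call ended without hypoxic-EV replicate 3 (0.0589). How strand was used in counting is not stated in the sources used here, so reads of these genes cannot be separated with certainty.

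Of the adenosine receptor genes, Adora2b was the more abundant. Adora2b, which encodes the low-affinity receptor (ENSMUSG00000018500, chromosome 11, 62139810 to 62157279, plus strand), stood at 5.50, 5.20 and 5.07 CPM in normoxic-EV and at 6.67, 6.94 and 5.34 CPM in hypoxic-EV. Replicate 3 of hypoxic-EV lay among the normoxic-EV values, while the other 2 were above all of them. The log2 fold change of 0.26 was not called (SE 0.14, 95% interval -0.03 to 0.55, edgeR adjusted p = 0.142). Without hypoxic-EV replicate 3 it was 0.38 and was called (edgeR adjusted p = 0.0485), and over the 12 alternatives the adjusted p ran from 0.0485 to 0.359.

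Adora2a, which encodes the high-affinity receptor (ENSMUSG00000020178, chromosome 10, 75152711 to 75170618, plus strand), had 8, 9 and 16 counts in normoxic-EV and 8, 3 and 9 in hypoxic-EV. In CPM these were 0.479, 0.525 and 0.711 against 0.472, 0.153 and 0.387, so the groups did not overlap, with normoxic-EV replicate 1 and hypoxic-EV replicate 1 nearly equal. In deposited FPKM, which lack the TMM factor, those 2 libraries stood at 0.1556 and 0.1560, so there the groups did overlap. It was below the count filter. Without the filter its log2 fold change was -0.77 (SE 0.458, 95% interval -1.67 to 0.13, edgeR adjusted p = 0.283). Set per length, the level of Adora2a was a small fraction of that of Adora2b in every library: the FPKM ratio was 0.0524, 0.0609 and 0.0846 in normoxic-EV and 0.0427, 0.0133 and 0.0437 in hypoxic-EV. The mean log2 ratio was -3.95 ± 0.353 with normoxic-EV and -5.10 ± 0.982 with hypoxic-EV (SD, n = 3), a difference of -1.15 (two-sided exact permutation p = 0.1, the lowest possible). The difference was -0.58 without hypoxic-EV replicate 2, the library with 3 counts of Adora2a. Of the 3 ratios in the text, this one was planned and those of P2rx7 to P2rx4 and P2ry6 to P2ry2 were chosen after their values were seen. Adjusted over the 3 by Benjamini-Hochberg, each exact permutation p was 0.1.

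The genes of CD39 and CD73, which act in turn to make adenosine outside the cell, were weakly expressed. Entpd1, the CD39 gene (ENSMUSG00000048120, chromosome 19, 40600810 to 40730046, plus strand), stood at 4.37, 5.84 and 5.60 CPM in normoxic-EV and at 4.96, 3.47 and 3.36 CPM in hypoxic-EV. The groups overlapped, because the lowest normoxic-EV library was below the highest hypoxic-EV library, both of them replicate 1. Entpd1 fell by 0.45 on the log2 scale (SE 0.17, 95% interval -0.80 to -0.09, edgeR adjusted p = 0.0388). That call ended without normoxic-EV replicate 2 (edgeR adjusted p = 0.132), without normoxic-EV replicate 3 (0.128), without hypoxic-EV replicate 2 (0.111) and without hypoxic-EV replicate 3 (0.171), and the DESeq2 adjusted p was 0.0888. Its span also holds the processed pseudogene Gm8783 on the same strand, which had 43.3% of the counts of Entpd1 and was not called (log2 fold change 0.24, edgeR adjusted p = 0.389).

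Nt5e, the CD73 gene (ENSMUSG00000032420, chromosome 9, 88209250 to 88254145, plus strand), had 1, 0 and 0 counts in normoxic-EV and 2, 1 and 0 in hypoxic-EV. A count of 0 allows up to 3 counts, which came to between 0.129 and 0.179 CPM in a library, and all 6 values were under that limit. No difference in Nt5e was detectable at this depth. These limits cover counting error only, since reads were not tagged by molecule and may be PCR copies.

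Levels can be ranked between genes per length, in deposited FPKM. In normoxic-EV, P2rx7 (7.19 ± 0.368 FPKM), P2ry6 (6.72 ± 0.324 FPKM) and P2rx4 (6.39 ± 0.394 FPKM; SD, n = 3) followed one another with overlapping ranges, so their order was within the spread of the libraries. In hypoxic-EV, P2ry6 came first at 8.99 ± 0.661 FPKM, P2rx7 stood at 5.92 ± 0.297 FPKM and P2rx4 at 4.36 ± 0.105 FPKM, and the ranges of these 3 no longer overlapped. P2ry2 stood above Adora2b in normoxic-EV (4.12 ± 0.385 against 2.84 ± 0.115 FPKM), without overlap. In hypoxic-EV they overlapped, at 2.96 ± 0.165 FPKM for P2ry2 and 3.42 ± 0.478 FPKM for Adora2b. Entpd1 was next in both groups, at 0.943 ± 0.144 and 0.704 ± 0.169 FPKM. P2ry12 and Adora2a, whose ranges overlapped in normoxic-EV only, were at most 0.305 FPKM in any library. P2ry14 and Nt5e were at most 0.027 FPKM, with overlapping ranges. Over all libraries the mean FPKM of P2ry6 was at or above that of 56.6% of tested genes, that of Adora2b 34.98% and that of Entpd1 15.8%.

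**Figure D3:**
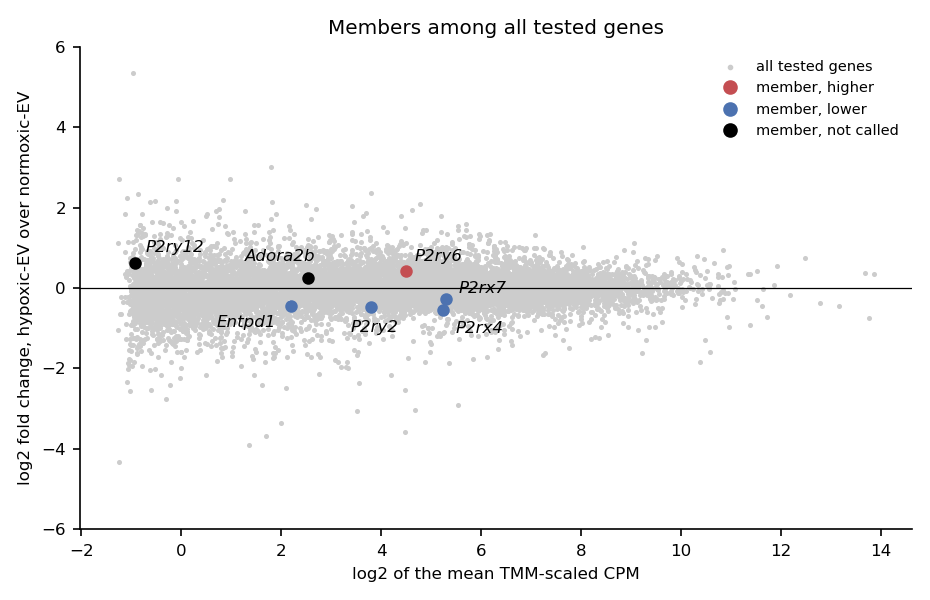
Log2 fold change of hypoxic-EV over normoxic-EV (y axis) against the log2 of the mean TMM-scaled CPM (x axis) for the 13303 tested genes (grey) and the 7 tested members (coloured by call). The 7 members lie between log2 fold changes of -0.55 and 0.64, within the grey cloud.

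The 3 receptor genes that fell can be set beside the sequence upstream of their starts. The windows below are the 250 bases before a RefSeq transcription start, read from RefSeq's GRCm38.p6 build, whose coordinates differ from the GRCm39 coordinates above. RefSeq windows were found for 8 of the 10 members, and not for P2ry6 and Adora2a. Both strands were searched for ACGTG (a form of the hypoxia response element core), TGACGTCA (the cyclic AMP response element) and TGACTCA (an AP-1 site). The other form of that core, GCGTG, was not searched. Capitals mark matches. P2rx4 has 1 listed start, at chr5:122707294-122707543 on the plus strand, P2rx7 is shown for the first of 2 listed starts, at chr5:122643677-122643926 on the plus strand, and P2ry2 for the second of 2, at chr7:101011999-101012248 on the minus strand.
P2rx4: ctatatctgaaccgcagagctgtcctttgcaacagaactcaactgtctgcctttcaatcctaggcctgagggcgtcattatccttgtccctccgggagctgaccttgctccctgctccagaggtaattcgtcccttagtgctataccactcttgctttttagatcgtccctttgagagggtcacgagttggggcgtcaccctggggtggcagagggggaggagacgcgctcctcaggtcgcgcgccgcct
P2rx7: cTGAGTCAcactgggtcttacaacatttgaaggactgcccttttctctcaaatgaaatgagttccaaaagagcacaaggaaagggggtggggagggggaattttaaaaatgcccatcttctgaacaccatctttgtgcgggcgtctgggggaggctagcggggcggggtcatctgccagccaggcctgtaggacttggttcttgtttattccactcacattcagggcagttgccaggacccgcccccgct
P2ry2: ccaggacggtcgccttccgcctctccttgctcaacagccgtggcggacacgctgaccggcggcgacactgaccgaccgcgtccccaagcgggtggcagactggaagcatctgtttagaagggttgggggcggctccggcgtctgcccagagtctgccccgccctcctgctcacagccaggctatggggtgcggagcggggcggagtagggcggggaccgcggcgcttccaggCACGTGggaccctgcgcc

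The P2rx4 window held none of these letters. The P2rx7 window held the AP-1 letters on the opposite strand 249 bases before the start, and that of its second start held no match. The P2ry2 window held CACGTG, which carries ACGTG on both strands, 18 bases before the start. The window of the other P2ry2 start did not reach it. The same CACGTG stood 228 bases before the start of P2ry12, and 1 of the 4 listed starts of P2ry14 had the AP-1 letters 202 bases before it. No window of Adora2b, Entpd1 or Nt5e held any of the 3 searched sequences, which leave out GCGTG. Over the 14 windows of the 8 members, 2 (14.3%) held ACGTG, 2 (14.3%) the AP-1 letters and 0 the cyclic AMP element. Among all 32851 RefSeq windows of this length, 16.6% held ACGTG, 4.46% the AP-1 letters and 1.55% the cyclic AMP element. A match describes the letters only and says nothing of binding, and no match says only that these letters are not in this window.

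The other genes of the pathway were counted from lists that cover further receptors, enzymes, transporters, channels and downstream signalling. These lists were chosen with earlier results of these data known, so their shares called are no test of the pathway. Of 94 listed genes 72 were tested, of which 25 rose and 13 fell, or 52.8% of those tested beside 44.2% of all genes. Their median log2 fold change was 0.03. The other receptors were mostly scarce: of 8 further P2X and P2Y genes only P2rx2 was tested (log2 fold change -0.25, edgeR adjusted p = 0.587), and P2ry1 had 0 counts in every library. Of Adora1 and Adora3, Adora3 was tested and not called (log2 fold change -0.05, edgeR adjusted p = 0.905). Of the P2 receptor genes listed, P2rx4, P2rx7, P2ry2 and P2ry6 were the ones with a mean above 2 CPM.

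Further ectonucleotidases and related phosphatases moved both ways. Of 16 listed genes 7 were tested, 2 rose and 2 fell (median log2 fold change 0.02), so that 57.1% were called beside 44.2% of all genes. Entpd5, which encodes a nucleoside diphosphatase of the endoplasmic reticulum, was lower at 110 ± 4.34 CPM, against 144 ± 0.759 CPM with normoxic-EV (SD, n = 3, log2 difference -0.38, edgeR adjusted p = 1.31e-06). Acpp, listed as Acp3, encodes an acid phosphatase that can hydrolyse AMP and fell from 66 to 26 summed counts (log2 fold change -1.41, edgeR adjusted p = 0.0028), passing the count filter only through normoxic-EV, where it was higher. Entpd7, a gene of an intracellular family member, rose by 0.27 (edgeR adjusted p = 0.0102), a call that ended without normoxic-EV replicate 1 (0.0687). Enpp3, a nucleotide pyrophosphatase gene with 20 and 45 summed counts, passed the filter only through hypoxic-EV, where it was called higher (log2 fold change 1.08, edgeR adjusted p = 0.0332). Its call ended without each normoxic-EV replicate (edgeR adjusted p = 0.121, 0.057 and 0.0598 without replicates 1, 2 and 3), without hypoxic-EV replicate 1 (0.154) and with DESeq2 (0.123). Entpd2, Entpd4, Entpd8 and Enpp1 had 0 counts, but Entpd4 and Entpd4b are near-identical copies whose reads may not have been assigned. Entpd4b had 23 of its 30 counts in hypoxic-EV replicate 1.

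Genes that consume adenosine or carry it across membranes were all above the count filter. Of these 13 genes 7 rose and 3 fell (median log2 fold change 0.18), so that 76.9% were called beside 44.2% of all genes. Adk, encoding adenosine kinase, which returns adenosine to AMP, rose to 65.0 ± 1.77 CPM from 49.7 ± 0.371 CPM (SD, n = 3), by 0.39 on the log2 scale (edgeR adjusted p = 5.86e-06). Slc29a1, the gene of the equilibrative nucleoside transporter ENT1 at the plasma membrane, rose by 0.39 (edgeR adjusted p = 0.000541), and Slc29a3, that of the lysosomal transporter ENT3, fell by 0.47 (edgeR adjusted p = 0.00066). Pnp, encoding purine nucleoside phosphorylase, fell by 0.30 and Ahcy, encoding the hydrolase that releases adenosine from S-adenosylhomocysteine, rose by 0.26 on the log2 scale. Ada, encoding adenosine deaminase and named after its values were seen, rose to 10.1 ± 0.718 CPM from 7.80 ± 0.138 CPM (by 0.37 on the log2 scale, edgeR adjusted p = 0.00968), a call that ended without hypoxic-EV replicate 3 (0.0514).

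Of 10 genes of nucleotide release 8 were tested, 3 rose and 1 fell (median log2 fold change 0.18), and the share called was 50% beside 44.2% of all genes. The channel genes Gja1 (connexin 43), Calhm2 and Panx1 (pannexin 1) had log2 fold changes of 0.81, 0.67 and 0.46 (edgeR adjusted p = 4.5e-06, 0.000391 and 0.000391). Panx1, known as a conduit of ATP, rose to 16.2 ± 0.868 CPM from 11.8 ± 0.598 CPM (SD, n = 3). Lrrc8d, a subunit gene of the volume-regulated anion channel, fell to 213 ± 1.70 CPM from 267 ± 1.44 CPM (log2 fold change -0.32, edgeR adjusted p = 3.37e-06). Gjb2 had 0 counts in every library.

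Downstream genes moved both ways. In the cyclic AMP arm of the adenosine receptors 5 of 21 tested genes rose and 3 fell, with 13 not called (median log2 fold change -0.03), 38.1% called beside 44.2% of all genes. Prkacb, a catalytic subunit gene of protein kinase A, fell to 140 ± 4.94 CPM from 205 ± 7.77 CPM (SD, n = 3), by 0.55 on the log2 scale (edgeR adjusted p = 7.21e-09). Adcy7, an adenylyl cyclase gene, and Pde4a, a cyclic AMP phosphodiesterase gene, rose by 0.42 and 0.61 on the log2 scale. Gnai3, an inhibitory G protein gene, fell by 0.25, and Prkar2a, a regulatory subunit gene of protein kinase A, rose by 0.23. Epas1, also listed there and encoding HIF-2alpha, had 0 counts in every library.

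In the arm downstream of P2X7 and the Gq-coupled P2Y receptors 8 of 21 tested genes rose and 4 fell (median log2 fold change 0.06), or 57.1% called beside 44.2% of all genes. Nlrp3, the inflammasome sensor gene, fell to 131 ± 8.06 CPM from 225 ± 10.7 CPM (SD, n = 3), by 0.78 on the log2 scale (edgeR adjusted p = 1.5e-10). Kcnk6, encoding the potassium channel TWIK2, which is known to act with P2X7 in potassium efflux, rose by 0.70 (edgeR adjusted p = 1.55e-05). Of the calcium genes, Itpr3, an IP3 receptor gene, and Nfatc2, a calcineurin-dependent transcription factor gene, rose by 0.64 and 0.74, and Camk2d, a calmodulin-dependent kinase gene, fell by 0.52 on the log2 scale. Pycard, the inflammasome adaptor gene, was below the count filter with 11 and 9 summed counts, and RAW 264.7 cells are known to lack this adaptor.

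**Figure D4:**
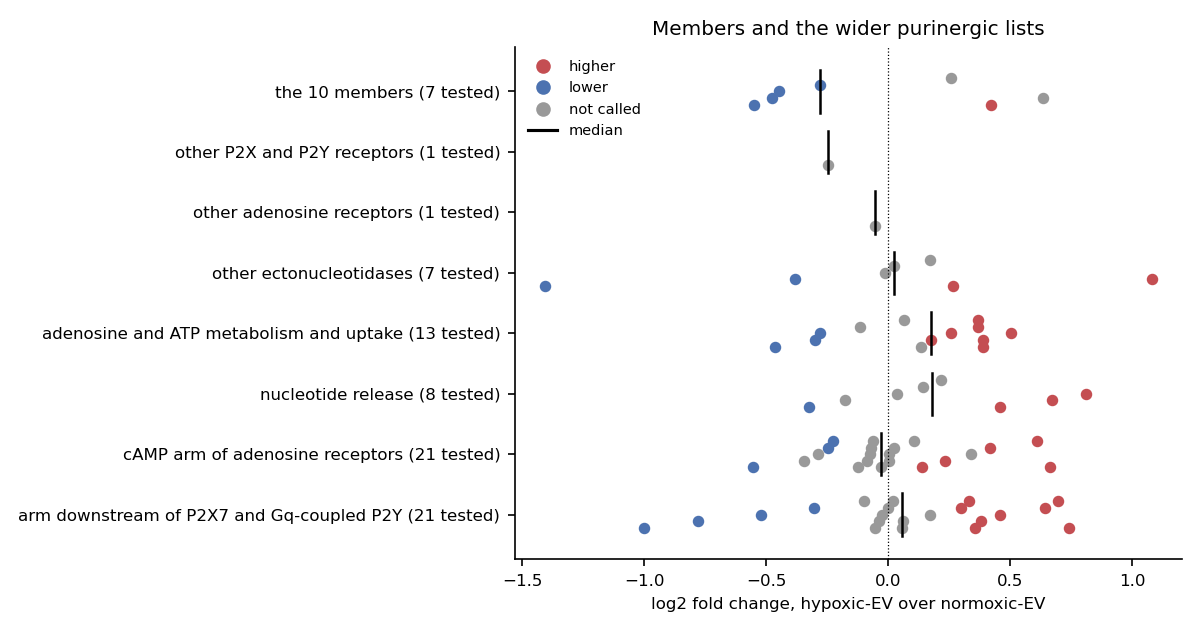
Log2 fold change of hypoxic-EV over normoxic-EV (x axis) of each tested gene of the 10 members and of the 7 wider lists (y axis), coloured by call, with a black line at each median. The members' median is -0.28, and those of the lists with over 1 tested gene lie between -0.03 and 0.18.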

How the data were processed

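RNA was extracted with a column kit, enriched for poly(A) and read in pairs on an Illumina HiSeq, per the labels' protocols. Per the submitters' processing notes, build GRCm39 was used with HISAT2 and featureCounts, and DESeq2 is also named. Versions, annotation, strand setting and multi-mapping treatment are not stated in the sources used here. The authors deposited raw counts for 57010 genes and FPKM values, which equal counts over library total and 1 length per gene within a relative tolerance of 1e-06 for each of the 26398 genes with a count. The authors also deposited a table of log2 fold changes and p-values for 462 genes, used to see which members and wider list genes it lists. Of the wider lists it holds 2 genes, Il1b (log2 fold change -1.01) and Acpp (-1.40).

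Counts were tested in edgeR 4.0.16 (R 4.3.3): filterByExpr (minimum count 10, minimum total 15), TMM scaling and a two-sided quasi-likelihood F-test over all 6 samples. The test was also run on simulated counts of 13128 genes, with far fewer changed genes than were called here. It called 68.7% of 99 genes changed by 0.5 on the log2 scale and 89% of 100 changed by 1, with 11 false calls. Smaller changes were not simulated. The SE is the size of the log2 fold change divided by the square root of F, and 95% intervals use edgeR's total degrees of freedom. DESeq2 1.42.0 and limma 3.58.1 served as alternatives. Libraries of a group differed by more than counting noise (chi-square per degree of freedom 2.72 to 5.84), so each was counted as 1 sample. A count of 3 came to between 0.129 and 0.179 CPM. Named were all 10 members, the called genes of lowest adjusted p in each wider list (at most 5), listed genes at 0 and genes overlapping a member. Ada, P2rx2, Adora3, Pycard, Il1b, Entpd4b and single cell type markers such as Cd79a, Csf1r, Itgam, Adgre1 and Lyz2 were named after their values were seen. The members and lists were chosen with earlier results of these data known. Acp3 was matched by its synonym Acpp.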

Additional observations from a re-analysis of the deposited data

How the results depend on the processing

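P2rx4, P2rx7, P2ry2 and P2ry6 kept their direction and call in all 12 alternatives, with log2 fold changes of -0.59 to -0.49, -0.31 to -0.24, -0.56 to -0.43 and 0.36 to 0.47. Entpd1 kept its direction (-0.63 to -0.34) and its call in 7 of 12, the exceptions being those named with its values. Leaving out each replicate in turn, members called higher ran from 1 to 2, the 2 coming without hypoxic-EV replicate 3, and members called lower from 3 to 4. Over the same 6 fits, all genes called higher ran from 2547 to 3014 and lower from 2390 to 2764, those of the wider lists from 19 to 26 and from 12 to 13, and the log2 difference in the ratio of Adora2a to Adora2b from -1.44 to -0.58. The cause of these shifts was not tested. With the replicate number as a block, 1 member was called higher and 4 lower, with 2910 genes higher and 2752 lower overall and 24 and 13 in the wider lists. The numbers did not pair the samples, since the correlation of same-numbered deviations ran from -0.05 to -0.02 and no normoxic-EV sample correlated best with the hypoxic-EV sample of its own number. Alternatives were fitted for 35 genes, with Il1b and the cell type markers not among them, and no called direction reversed. Adora3, not called, was above 0 without normoxic-EV replicate 1, normoxic-EV replicate 3 and hypoxic-EV replicate 1 (0.06, 0.02 and 0.03). Low counts limit P2ry12, P2ry14, Adora2a and Nt5e.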
